A study of Mus musculus with 40 samples.

Results

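The comparison described here used male mice whose hippocampus was given an acetylation-blocked H2A.Z.1 after H2A.Z deletion (KA, n = 4, mice 5, 25, 26 and 43). They were set against male mice labelled as H2A.Z deletion alone (KO, n = 4, mice 3, 4, 21 and 42). These 8 mice were chosen from the sample titles out of a series of 40 mice, of which 22 were male, with 10 combinations of sex and virus. All 8 carried floxed alleles of both H2A.Z genes, H2A.Z.1 (H2afz, listed as H2az1) and H2A.Z.2 (H2afv, listed as H2az2), and received adeno-associated virus (AAV) with Cre recombinase under the synapsin promoter, which drives expression in neurons. KA mice also received a CMV-driven, Myc-tagged H2A.Z.1 in which lysines 4, 7 and 11 were replaced by alanine, and KO mice received the Myc tag with GFP in its place. Male Myc mice (n = 4, mice 1, 22, 23 and 41) received the tag without Cre and are given beside both groups. The virus was injected into the hippocampus on both sides, and RNA was sequenced from this tissue as a mixture of all its cells. Glia, vessels and blood-derived cells lie outside the synapsin promoter's reach, so their H2A.Z genes were not the target. The H2A.Z.1 construct did not use that promoter, and the cells that expressed it cannot be told from these data. Ages were not given in the labels.

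H2A.Z is a variant of histone H2A that replaces the canonical histone in nucleosomes around transcription start sites and at enhancers. It is put in place and removed by remodelling complexes, and acetylation of lysines in its N-terminal tail is a mark of active genes. In neurons H2A.Z has been studied for its part in memory and in genes that respond to activity. A lysine-to-alanine change leaves a side chain that cannot take an acetyl group. The question put by the comparison is how much of the RNA profile of deletion differs once a form of H2A.Z.1 that cannot be acetylated at these positions is supplied.

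The start of each coding sequence is shown because it carries the 3 codons that the construct changes. The sequences are the first 45 coding bases (15 codons) of the reference genes in GRCm39, 5′ to 3′ on the coding strand, with the codons of lysines 4, 7 and 11 in capitals, counted without the first methionine.
H2az1: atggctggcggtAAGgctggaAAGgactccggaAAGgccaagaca
H2az2: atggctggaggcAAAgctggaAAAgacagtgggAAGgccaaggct
In H2az1 the start codon lies in exon 1 (chr3:137570455-137570457, plus strand) and the rest in exon 2 (chr3:137570894-137570935). In H2az2 they lie in exon 1 (chr11:6394337-6394339, minus strand) and exon 2 (chr11:6389412-6389453). The 2 genes share 35 of these 45 bases (77.8%), and all 3 lysine codons stand at the same places.

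H2az1 transcript was measured at 43.8, 40.1, 40.9 and 43.2 counts per 1000000 gene counts (CPM) in KA mice 5, 25, 26 and 43, against 37.6, 37.0, 33.9 and 17.7 CPM in KO-labelled mice 3, 4, 21 and 42. Values per mouse are given in this order throughout. All 4 KA mice lay above all 4 KO-labelled mice, yet the difference did not pass the test (log2 fold change 0.41 ± 0.16 SE, adjusted p = 0.077, edgeR quasi-likelihood test with Benjamini-Hochberg adjustment, as for every adjusted p below). It passed without KO mouse 3 (adjusted p = 0.043) and was 0.22 (adjusted p = 0.32) without KO mouse 42, the lowest library. Myc mice held 27.0 to 37.2 CPM, so 3 of the 4 KO-labelled mice were within or above the Myc range, and KO over Myc was -0.05 (adjusted p = 0.84). H2az2, which the construct does not encode, was at 28.4, 24.7, 25.2 and 24.9 CPM in KA mice, against 28.7, 29.3, 23.3 and 20.8 CPM in KO-labelled mice. The groups overlapped (log2 fold change 0.01, adjusted p = 0.959), and KO over Myc was 0.14 (adjusted p = 0.35). In these gene-level counts neither transcript thus marked the libraries labelled KO, so directions drawn from them below rest on the label. The exons removed by Cre are not given in the sources used here, and the counts do not separate a transcript that lost an exon, the endogenous gene in cells without Cre and the viral H2A.Z.1.

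**Figure D1:**
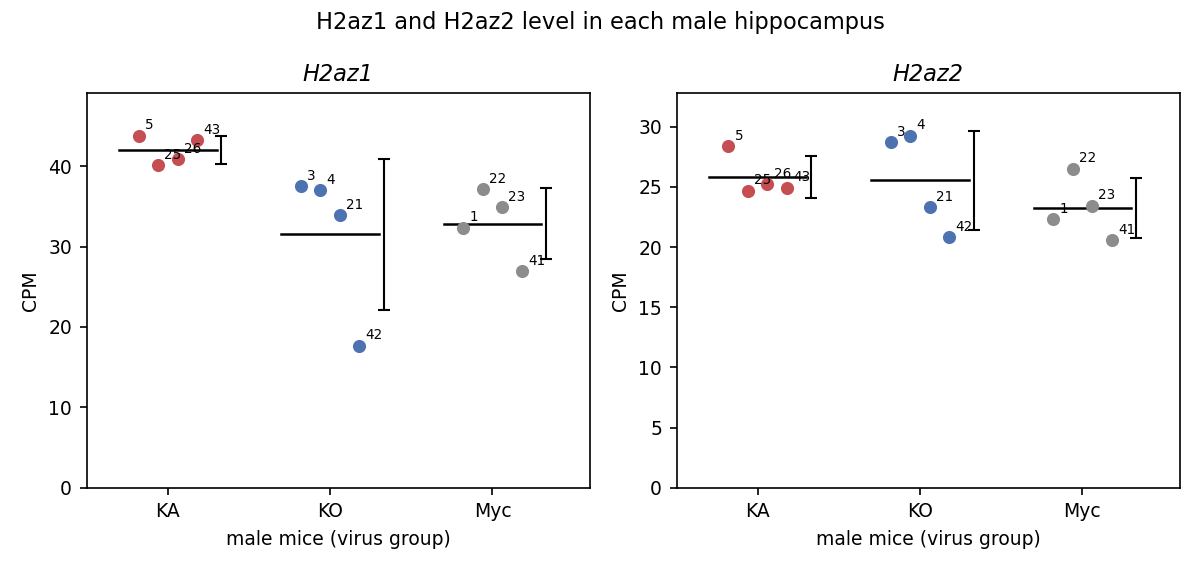
CPM of H2az1 and H2az2 (vertical axes, from 0) in each male KA, KO-labelled and Myc mouse, with mouse numbers beside the points and the group mean as a line. The 4 KA mice sit between 40.1 and 43.8 CPM of H2az1, above all 4 KO-labelled mice, of which mouse 42 is lowest at 17.7 CPM, while the groups overlap for H2az2.

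Libraries held 35475876 to 39567535 gene counts in KA mice, 24342921 to 43158420 in KO-labelled mice (mouse 42 the smallest) and 33661020 to 41090936 in Myc mice. In a principal component analysis of the 22 male mice over the 2000 most variable genes, the first component took 57.7% of the variance. KA mouse 5 stood apart from its group on it at 41.1, with the other KA mice at -27.8 to -6.11, KO-labelled mice at 63.2 to 88.7 and Myc mice at -66.6 to -56.1. Drd1, a dopamine receptor abundant in striatum, was at 20.1 and 14.4 CPM in KA mice 5 and 26 and at 18.6 CPM in KO mouse 3, and at 3.48 to 8.10 CPM in the other 5 mice. Rbfox3, which encodes the neuronal marker NeuN, was at 246 to 308 CPM in KA mice, against 173 to 228 CPM in KO-labelled mice (log2 fold change 0.39, adjusted p = 0.021). Gad1, a marker of interneurons, was higher too (0.36, adjusted p = 0.027). Snap25, Slc17a7, Prox1 and Wfs1, markers of neurons, excitatory neurons, dentate granule cells and CA1, were present in every mouse. Their log2 fold changes were positive (0.33, 0.39, 0.14 and 0.21) but did not pass the test. Mbp (oligodendrocytes, 0.13), Pdgfra (their precursors, -0.16), Cldn5 (endothelium, -0.16) and Ttr (choroid plexus, -0.37) were also present in every mouse and did not pass. In such a tissue mixture, fewer cells of a type and less RNA per cell cannot be told apart.

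Of 28449 genes tested, 1667 were higher in KA than in KO-labelled mice (5.86%) and 2827 were lower (9.94%). These shares are the background for every count of list members below. The lower genes moved further, with a median log2 fold change of -1.03 among them, against 0.42 among the higher ones. Past 1 log2 unit, 190 genes were higher and 1456 were lower, and the median over all genes was -0.02. In 17.3% of the genes tested the 4 KA and the 4 KO-labelled mice did not overlap, with KA mice on top in 2163 genes and at the bottom in 2760. Without KO mouse 4 the higher genes numbered 1106, and without KA mouse 43 they numbered 988. Without KA mouse 5, the count was 1846 higher and 3006 lower. A fit on these 8 mice alone, which estimates the spread from fewer libraries, called 938 higher and 1723 lower.

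Set beside Myc mice, 1464 genes were higher and 780 lower in KA, and 4900 were higher and 4104 lower in KO. These 2 comparisons share the Myc libraries, and the KO libraries also stand in KA over KO, so their values are given side by side only.

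The largest changes were ranked among called genes with a mean of at least 1 CPM over the 8 mice and groups without overlap. Their separation was thus set by that choice. The largest increase in KA mice was that of Dach2 (chrX:112207186-112746083, plus strand, GRCm39), which encodes a transcriptional cofactor of the dachshund family. It was at 12.2, 4.71, 7.32 and 7.55 CPM in KA mice, against 1.05, 0.982, 0.257 and 0.951 CPM in KO-labelled mice (log2 fold change 3.31 ± 0.50 SE, adjusted p = 3.47e-05). Myc mice held 0.444 to 1.26 CPM, overlapping the KO-labelled mice and below every KA mouse. Male mice given wild-type H2A.Z.1 after Cre held 3.60 to 14.0 CPM and those given the acetyl-mimic (KQ) form 5.25 to 19.2 CPM. Dach2 was thus high in each male group that received an H2A.Z.1 construct. Klk10, a kallikrein-related protease gene, was at 1.37, 1.09, 4.51 and 4.18 CPM in KA mice, against 0.135, 0.436, 0.655 and 0.432 CPM in KO-labelled mice (log2 fold change 2.73 ± 0.43 SE, adjusted p = 4.19e-05). The Myc range of Klk10 was 0.804 to 1.78 CPM, which KA mice 26 and 43 exceeded and every KO-labelled mouse fell under.

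Several other large increases left KA mice near the Myc level. The unnamed transcript Gm41069 was at 1.78 to 2.00 CPM in KA mice, against 0.0811 to 0.518 CPM in KO-labelled mice and 2.63 to 2.97 CPM in Myc mice (log2 fold change 2.55, adjusted p = 2.18e-07). Smim18, a small membrane protein gene, was at 2.47 to 3.24 CPM in KA mice, against 0.302 to 0.973 CPM in KO-labelled mice and 3.32 to 3.97 CPM in Myc mice (log2 fold change 1.86). Ybx2, a germ-cell RNA-binding protein gene of the Y-box family, was at 6.34 to 9.19 CPM in KA mice, against 1.35 to 3.11 CPM in KO-labelled mice and 5.14 to 6.31 CPM in Myc mice (log2 fold change 1.67). Tbata was at 5.93 to 8.76 CPM in KA mice, against 0.946 to 3.93 CPM in KO-labelled mice and 10.3 to 10.8 CPM in Myc mice (log2 fold change 1.46). For these 4 genes the KA mean was closer to the Myc mean than the KO mean was.

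Further genes among the 15 largest increases were 6530403H02Rik, Gm33533, E130008D07Rik, Gm34267, Gm32679, Gm34759, Lor and Pgpep1l, with log2 fold changes of 1.47 to 1.83. Lor, which encodes the epidermal protein loricrin, was at 4.28 to 6.96 CPM in KA mice, against 1.17 to 2.83 CPM in KO-labelled mice (adjusted p = 2.39e-05).

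**Figure D2:**
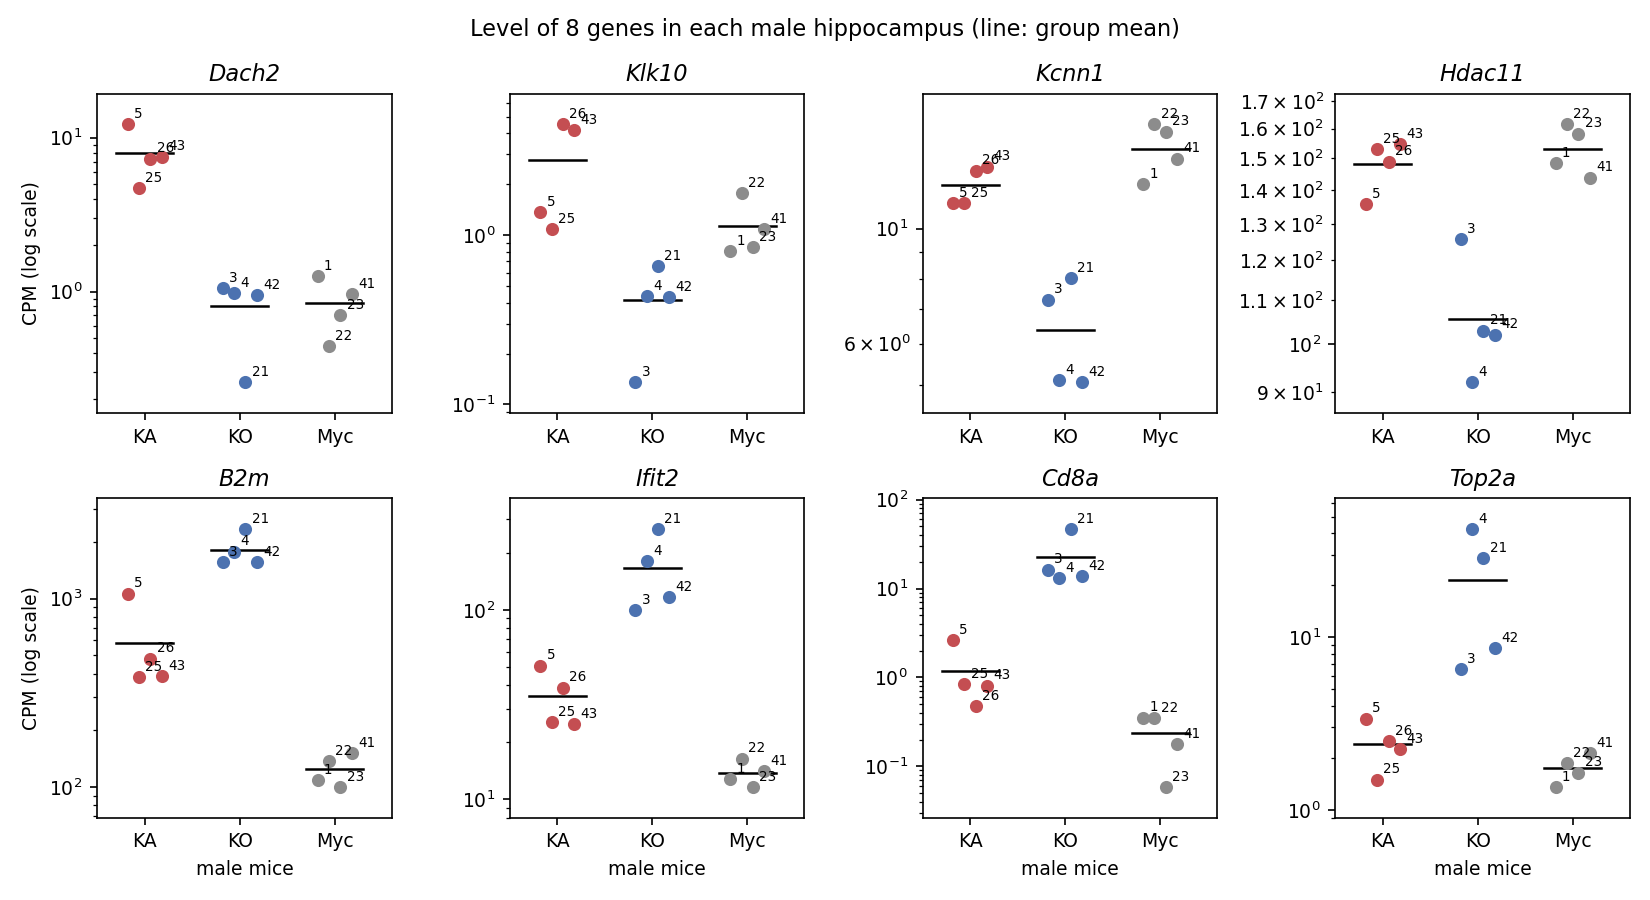
CPM (vertical axes, log scale) of 8 genes in each male KA, KO-labelled and Myc mouse, with mouse numbers beside the points and group means as lines. Dach2 lies between 4.71 and 12.2 CPM in KA mice and at or below 1.05 CPM in KO-labelled mice, and B2m lies between 383 and 1063 CPM in KA mice, below every KO-labelled mouse.

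The 15 largest decreases were mostly immune genes, and 8 of them were immunoglobulin genes. Genes near 0 in KA mice reached the required mean of 1 CPM through KO-labelled mice alone, some through a single mouse. The ranking favours such genes, so the make-up of these 15 is not a result about gene classes. Ighv1-22, Igkv4-74, Igkv4-68, Igkv3-4, Igkv16-104 and Ighv1-53 are variable gene segments, of which each B cell clone uses its own. Their reads in KA mice came to 10 or fewer over the 4 libraries, so no fold change is given. Different KO-labelled mice led them, as Ighv1-22 reached 34.3 CPM and Igkv4-74 13.8 CPM in mouse 3, Igkv3-4 82.7 CPM and Ighv1-53 45.2 CPM in mouse 4, and Igkv4-68 54.2 CPM in mouse 42. Igkv16-104 was spread more evenly, at 6.60, 2.24, 5.89 and 0.130 CPM in the KO-labelled mice. The calls of Ighv1-22 and Igkv4-74 were lost without KO mouse 3 (adjusted p = 0.183 and 0.0942), that of Igkv4-68 without KO mouse 42 (adjusted p = 0.109) and that of Igkv3-4 without KO mouse 4 (adjusted p = 0.131). Leaving out KA mouse 43 also ended the calls of Igkv4-74 and Igkv3-4, as did KA mouse 25 or 26 for Igkv3-4. Iglv1 was at 8.05, 0, 1.47 and 0.377 CPM in KA mice, against 12.2, 32.6, 15.9 and 285 CPM in KO-labelled mice, and Iglc1 at 3.60, 0, 0.446 and 0.539 CPM, against 4.73, 14.1, 6.01 and 116 CPM. Without KO mouse 42 their adjusted p was 0.206 and 0.242. Reads of these near-identical segments may be shared among family members, so the gene-level values are uncertain.

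The other 7 genes were Cd8a, Ifng, Sh2d2a, Trgc2, Klrh1, Gbp2b and Gm5486. Cd8a (chr6:71350411-71356157, plus strand), a chain of the co-receptor of cytotoxic T cells, was at 2.61, 0.836, 0.472 and 0.809 CPM in KA mice, against 16.3, 13.0, 46.8 and 13.8 CPM in KO-labelled mice. Its log2 fold change was -4.25 ± 0.69 SE (adjusted p = 7.06e-05), and Myc mice held 0.0586 to 0.352 CPM. Sh2d2a, a T cell signalling adaptor gene, was at 0.262 to 1.07 CPM in KA mice, against 4.96 to 19.6 CPM in KO-labelled mice (log2 fold change -4.17, adjusted p = 2.38e-05). Ifng, the gene of interferon gamma, was at 0.357, 0.0253, 0.0262 and 0 CPM in KA mice, against 1.46, 0.845, 7.93 and 1.77 CPM in KO-labelled mice, and was not read in Myc mice. KA mouse 5 was highest in its group for Cd8a, Ifng and Sh2d2a, which were ranked among genes whose groups did not overlap.

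All 42 tested members of the interferon response list were lower in KA mice, with a median log2 fold change of -1.80 (median of all genes -0.02, background 9.94% lower). Interferons act through JAK kinases and STAT factors, and the genes they switch on encode antiviral proteins, GTPases and parts of antigen presentation. The list medians were 2.82 in KA over Myc and 4.46 in KO over Myc, so that KA mice stood between the other groups. Stat2 (chr10:128106352-128128735, plus strand, GRCm39), a transcription factor of type I interferon signalling, was at 83.1, 46.3, 60.6 and 50.7 CPM in KA mice, against 106, 160, 208 and 143 CPM in KO-labelled mice (log2 fold change -1.36 ± 0.21 SE, adjusted p = 4.27e-05). Gbp7, an interferon-induced GTPase gene (chr3:142236044-142255910, plus strand, GRCm39), was at 83.5, 23.1, 36.6 and 25.1 CPM in KA mice, against 145, 212, 308 and 176 CPM in KO-labelled mice (log2 fold change -2.33 ± 0.41 SE, adjusted p = 1.89e-04). For both genes the groups were separate, KA mouse 5 was the nearest KA mouse to the KO range, and Myc mice were lower still (29.7 to 33.3 CPM of Stat2 and 7.95 to 11.4 CPM of Gbp7). Ifit2, which binds viral RNA, had a log2 fold change of -2.25 and Xaf1, a gene linked to cell death, one of -1.40. With 1 mouse left out the count was 41 or 42 of 42.

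Promoter windows of Stat2, Gbp7 and Oas3 are shown because the interferon list as a whole was lower and these windows hold the core letters of the interferon-stimulated response element, GAAANNGAAA (N, any base). The motif was searched on both strands in RefSeq windows of GRCm38.p6 that run from 250 bases before to 50 bases after each gene's start, 5′ to 3′ on the gene's strand, and the match is in capitals.
Stat2 (chr10:128270248-128270547, plus strand): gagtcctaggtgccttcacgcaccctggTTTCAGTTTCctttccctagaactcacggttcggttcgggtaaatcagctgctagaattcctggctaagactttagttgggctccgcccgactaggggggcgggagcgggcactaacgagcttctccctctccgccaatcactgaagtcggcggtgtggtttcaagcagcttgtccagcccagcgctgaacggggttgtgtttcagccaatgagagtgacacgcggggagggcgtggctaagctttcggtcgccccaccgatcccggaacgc
Gbp7 (chr3:142530086-142530385, plus strand): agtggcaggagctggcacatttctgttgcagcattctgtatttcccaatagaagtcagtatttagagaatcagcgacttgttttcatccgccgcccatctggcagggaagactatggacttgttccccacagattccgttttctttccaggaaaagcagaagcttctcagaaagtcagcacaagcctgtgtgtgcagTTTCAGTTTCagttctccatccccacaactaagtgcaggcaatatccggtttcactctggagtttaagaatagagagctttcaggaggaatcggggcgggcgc
Oas3 (chr5:120777610-120777909, minus strand): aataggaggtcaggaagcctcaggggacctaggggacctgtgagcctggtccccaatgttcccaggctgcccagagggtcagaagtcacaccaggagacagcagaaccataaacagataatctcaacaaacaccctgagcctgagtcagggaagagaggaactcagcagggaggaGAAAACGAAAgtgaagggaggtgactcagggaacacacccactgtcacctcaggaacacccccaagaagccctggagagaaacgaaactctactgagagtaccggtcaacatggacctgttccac
The match begins 222 bases before the start in Stat2, 53 bases before it in Gbp7 and 75 bases before it in Oas3. In Stat2 and Gbp7 the letters stand on the opposite strand and so read as TTTCNNTTTC. Of the 42 interferon genes, 29 had a window and 19 of these held the motif (65.5%), against 777 of the 19901 tested genes with a window (3.9%). By window the shares were 20 of 35 (57.1%) and 825 of 25016 (3.3%). The windows of Ifit2 and Xaf1 held no match. The share was 5 of 17 (29.4%) for MHC class I and peptide loading, 0 of 7 for MHC class II and 1 of 25 (4%) for mitosis genes. A match describes the letters in the window only.

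Genes that present antigen were lower in KA mice without exception among those tested, 21 of 21 for MHC class I and peptide loading (median log2 fold change -1.80) and 10 of 10 for MHC class II (median -2.85). MHC class I shows peptides from inside the cell to cytotoxic T cells, and class II shows peptides taken up from outside to helper T cells. B2m (chr2:121977957-121983594, plus strand), the light chain of every class I molecule, was at 1063, 383, 480 and 389 CPM in KA mice, against 1557, 1776, 2339 and 1563 CPM in KO-labelled mice. The groups were apart (log2 fold change -1.64 ± 0.30 SE, adjusted p = 2.3e-04) and Myc mice held 100 to 151 CPM. Tap2, a subunit of the peptide transporter, was at 34.7, 12.3, 18.9 and 13.3 CPM in KA mice, against 56.8, 70.2, 109 and 52.2 CPM in KO-labelled mice (log2 fold change -1.87). H2-T24, Erap1, which trims peptides, and Tapbpl, a tapasin-like editor of peptide loading, had log2 fold changes of -1.39, -1.54 and -1.84, and Psmb8, an immunoproteasome subunit, one of -2.15.

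Ciita (chr16:10297923-10347694, plus strand), the coactivator that switches on MHC class II genes, was at 5.33, 2.18, 3.04 and 2.51 CPM in KA mice, against 13.9, 15.2, 47.3 and 14.8 CPM in KO-labelled mice (log2 fold change -2.81 ± 0.36 SE, adjusted p = 4.18e-06). KA mice 25, 26 and 43 were close to the Myc range of 1.88 to 2.41 CPM and KA mouse 5 was above it. H2-DMa and H2-DMb1, which load peptides on class II, and H2-Oa, which restrains that step, had log2 fold changes of -1.44, -2.27 and -2.54. In the fit on the 8 mice alone, H2-DMb1 and H2-Oa did not pass (adjusted p = 0.056 and 0.080), and 12 of the 21 class I genes, 3 of the 10 class II genes and 22 of the 42 interferon genes were called. Summed over the list, class II was at 107 to 1029 CPM in KA mice, against 1686 to 4378 CPM in KO-labelled mice and 22.3 to 38.9 CPM in Myc mice. The sums of the groups did not overlap.

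Transcripts of lymphocytes were lower in KA mice. Of 30 tested T and natural killer cell genes 29 were lower, with a median log2 fold change of -2.78, and the exception was Thy1 (0.27, adjusted p = 0.169), which neurons also express. Lck, a kinase of the T cell receptor, was at 4.01, 2.46, 2.23 and 2.32 CPM in KA mice, against 9.65, 7.50, 23.4 and 7.52 CPM in KO-labelled mice (log2 fold change -2.13, adjusted p = 4.76e-05). Cd247, the receptor's zeta chain, had a log2 fold change of -3.01, Cd3e, another of its chains, one of -3.17 and Nkg7, a protein of cytotoxic granules, one of -3.70. Cd3e was at 0.485 to 2.89 CPM in KA mice, against 4.99 to 21.2 CPM in KO-labelled mice and 0.0293 to 0.201 CPM in Myc mice. These levels are low, and KO mouse 21 was highest in each of these genes. With 1 mouse left out the count of lower genes was 25 to 29, and it was 18 in the fit on 8 mice.

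Of 16 B and plasma cell genes 7 were lower (median log2 fold change -1.83). Pax5, the B cell identity factor, was at 0.302, 0.152, 0.525 and 0.135 CPM in KA mice, against 2.00, 1.85, 2.62 and 2.12 CPM in KO-labelled mice (log2 fold change -2.93, adjusted p = 1e-04). Ms4a1, a surface protein of B cells, and Cd79a, a signalling chain of their receptor, had log2 fold changes of -3.17 and -2.39. Ighm, the heavy chain of IgM, was at 129, 17.3, 65.9 and 57.0 CPM in KA mice, against 135, 81.3, 113 and 80.2 CPM in KO-labelled mice, so that KA mouse 5 reached the KO range (log2 fold change -0.60, adjusted p = 0.42). The list's summed level in KA mice ran from 24.3 to 1226 CPM, against 988 to 1647 CPM in KO-labelled mice, and those ranges overlapped. Without KA mouse 25, 26 or 43 the count was 4 of 16.

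Of 22 chemokine and cytokine genes 17 were lower (median log2 fold change -1.50). That count was 13 to 19 with 1 mouse left out, and 7 in the fit on 8 mice. Tgfb1, a regulatory cytokine, was at 10.6, 6.97, 7.82 and 7.09 CPM in KA mice, against 16.4, 20.5, 20.1 and 19.5 CPM in KO-labelled mice and 3.24 to 4.18 CPM in Myc mice (log2 fold change -1.24 ± 0.18 SE, adjusted p = 1.41e-05). Tnf and Il1a, inflammatory cytokines, and Ccl7, a monocyte attractant, had log2 fold changes of -2.50, -1.38 and -3.55. Tnf was at 0.351 to 1.54 CPM in KA mice, against 2.20 to 8.32 CPM in KO-labelled mice, with no overlap. Complement tags debris and synapses for uptake, and 10 of its 14 genes were lower (median -1.46). Cfb, a factor of the alternative pathway, was at 13.3, 4.51, 7.61 and 5.28 CPM in KA mice, against 21.4, 44.5, 86.0 and 29.0 CPM in KO-labelled mice (log2 fold change -2.56), and the lower KA mice were near the Myc range of 4.00 to 4.92 CPM. C5ar1, the receptor of the C5a fragment, C2 and C1ra had log2 fold changes of -1.56, -2.03 and -2.59. Without KO mouse 4 or KA mouse 43 the complement count was 6 of 14, and 2 were called in the fit on 8 mice.

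Microglia are the resident macrophages of the brain. Of 19 homeostatic microglial genes 14 were lower in KA mice, with a median log2 fold change of -0.79. Sall1, the factor that keeps microglial identity, was at 34.1, 27.9, 29.6 and 28.5 CPM in KA mice, against 41.9, 59.0, 52.6 and 44.3 CPM in KO-labelled mice and 18.4 to 20.2 CPM in Myc mice (log2 fold change -0.72 ± 0.09 SE, adjusted p = 4.18e-06). The 3 groups did not overlap. Selplg, an adhesion ligand, and Tmem119, a microglial surface protein, each had a log2 fold change of -0.79, and Itgam, the CD11b integrin, one of -1.17. Aif1, which encodes IBA1, was at 12.8 to 34.0 CPM in KA mice, against 32.1 to 69.3 CPM in KO-labelled mice, with KA mouse 5 above KO mouse 42. The homeostatic list summed to 1206 to 2222 CPM in KA mice, against 2171 to 4252 CPM in KO-labelled mice and 525 to 686 CPM in Myc mice.

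Among genes of phagocytic microglia and macrophages, 13 of 23 were lower (median log2 fold change -1.25). Ctss, a lysosomal protease, was at 677, 291, 382 and 265 CPM in KA mice, against 1005, 1194, 1152 and 818 CPM in KO-labelled mice and 75.0 to 109 CPM in Myc mice (log2 fold change -1.37, adjusted p = 0.0017). Axl, a receptor for dying cells, Ctsz, a cathepsin, and Cybb, the catalytic subunit of the phagocyte oxidase, had log2 fold changes of -0.99, -1.25 and -2.35. This count moved with single mice: it was 5 without KO mouse 4, KA mouse 25 or KA mouse 43, 8 without KA mouse 26 and 19 without KA mouse 5, and 2 genes were called in the fit on 8 mice. Of 25 cathepsin and lysosome genes 20 were lower (median -0.84). That count was 15 to 22 with 1 mouse left out, and 10 in the fit on 8 mice. Lgmn, a lysosomal endopeptidase, was at 150, 102, 118 and 104 CPM in KA mice, against 204, 315, 310 and 215 CPM in KO-labelled mice (log2 fold change -1.14 ± 0.14 SE, adjusted p = 2.92e-06). Grn, the gene of progranulin, and Laptm5, a lysosomal membrane protein of blood-derived cells, had log2 fold changes of -1.13 and -1.19.

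Of 16 astrocyte genes 4 were lower (median log2 fold change -0.31). Slc1a3, the glutamate transporter GLAST, was at 1060, 779, 876 and 774 CPM in KA mice, against 1393, 1443, 1293 and 1542 CPM in KO-labelled mice and 619 to 728 CPM in Myc mice (log2 fold change -0.70 ± 0.12 SE, adjusted p = 9.95e-05). Aldh1l1, a folate enzyme used as an astrocyte marker, Atp1b2, a sodium pump subunit, and Gja1, the gap junction protein connexin 43, had log2 fold changes of -0.85, -0.54 and -0.41. Of 22 reactive astrocyte genes 11 were lower (median -1.52). Gbp2 was at 195, 25.2, 60.8 and 31.8 CPM in KA mice, against 430, 609, 1078 and 425 CPM in KO-labelled mice (log2 fold change -3.02, adjusted p = 0.0014), and Srgn, a granule proteoglycan, and Cp, the copper carrier ceruloplasmin, had log2 fold changes of -1.62 and -1.52. Gbp2, Psmb8 and Srgn are expressed by other cells as well. Without KO mouse 4 the count of reactive genes was 6, without KA mouse 43 it was 7 and without KA mouse 5 it was 18, and 1 gene was called in the fit on 8 mice.

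**Figure D3:**
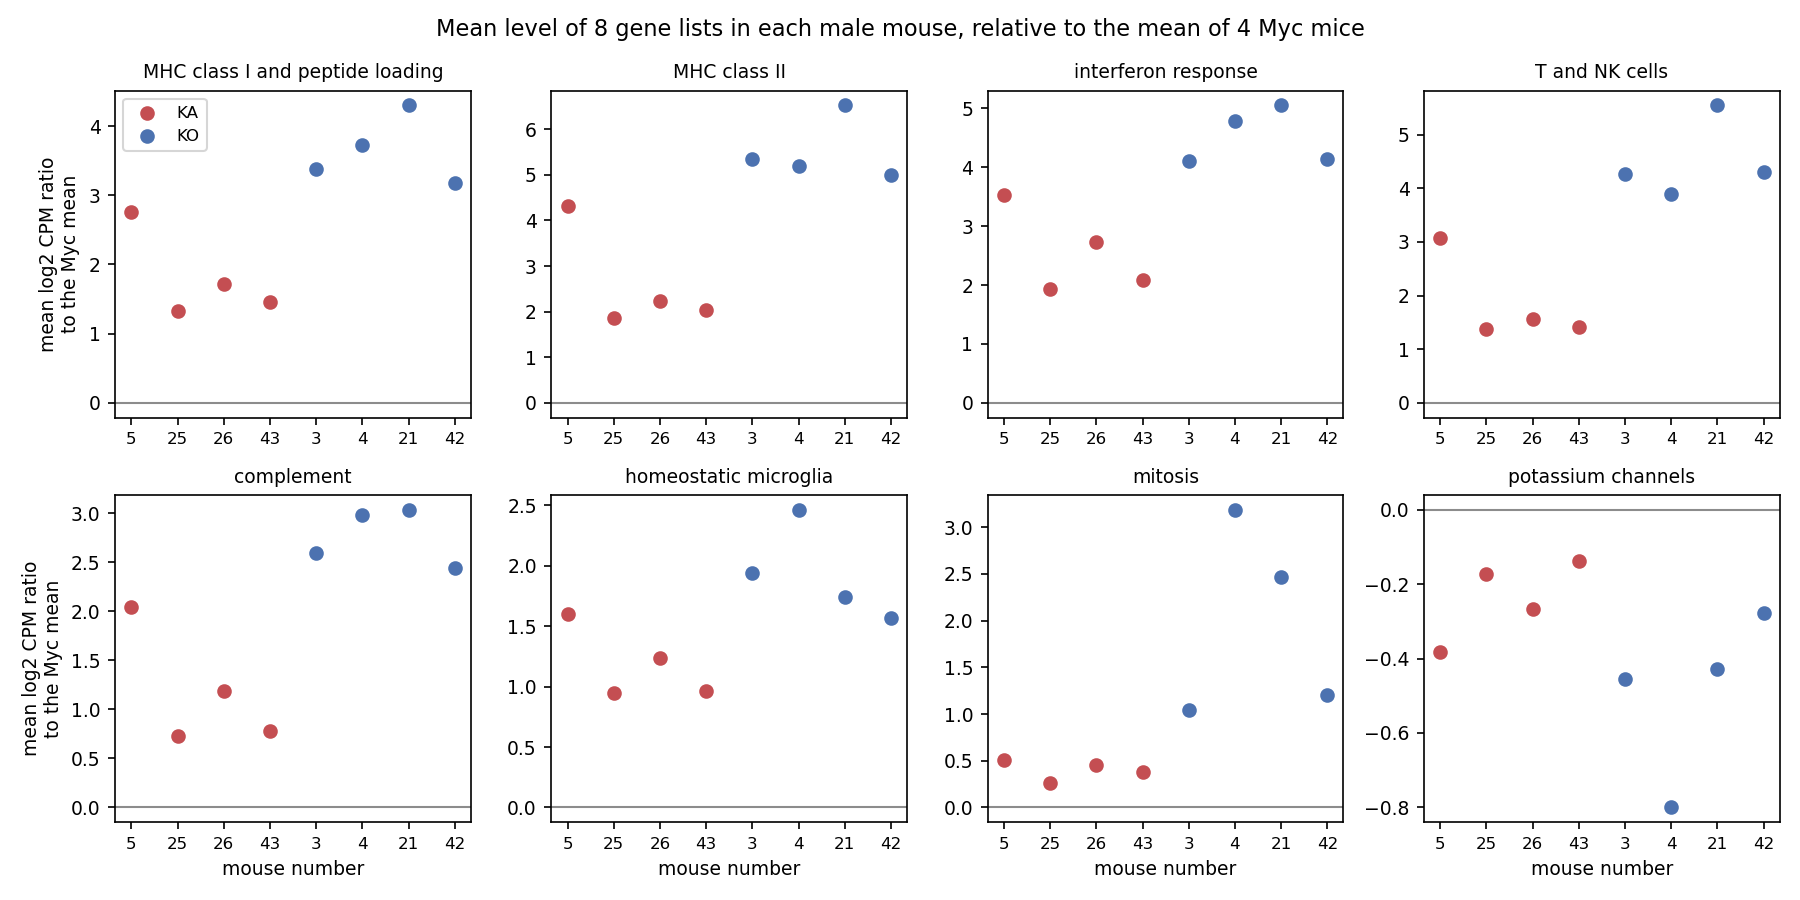
Mean log2 CPM ratio of 8 gene lists to the mean of the 4 Myc mice (vertical axes, 0 being Myc) in each male KA and KO-labelled mouse, by mouse number. In the MHC class II list KA mice lie at 4.31, 1.85, 2.24 and 2.04, against 5.34, 5.19, 6.52 and 5.01 in KO-labelled mice, with KA mouse 5 the highest of its group.

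KA mouse 5 was the highest KA mouse in the means of the interferon, MHC, T cell and microglial lists, at 3.52 log2 units above Myc for the interferon list, against 1.94 to 2.73 in the other KA mice and 4.11 to 5.05 in KO-labelled mice. With KA mouse 5 left out, all 42 interferon genes, all 21 MHC class I genes and all 10 MHC class II genes were called lower. Lymphocyte and microglial markers moved with the interferon and MHC genes, and their part in those results was not tested.

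Genes of cell division were lower in KA mice. Cells that divide express mitotic motors, kinases and spindle proteins, and mature neurons do not. Of 30 mitosis genes 27 were lower, with a median log2 fold change of -2.05, and the list medians were 0.32 in KA over Myc and 2.32 in KO over Myc. Top2a (chr11:98883769-98915062, minus strand), the topoisomerase that untangles replicated chromosomes, was at 3.38, 1.495, 2.49 and 2.24 CPM in KA mice, against 6.54, 42.4, 28.7 and 8.64 CPM in KO-labelled mice (log2 fold change -3.17 ± 0.50 SE, adjusted p = 5.13e-05). KA mouse 25 was within the Myc range of 1.36 to 2.13 CPM and the other KA mice a little above it, and KO-labelled mice spread widely, with mice 4 and 21 well above mice 3 and 42. Cenpe, a kinetochore motor, Cdc20, an activator of the anaphase-promoting complex, and Tpx2, a spindle protein, had log2 fold changes of -2.19, -2.26 and -2.03. The mitosis list summed to 88.2 to 92.6 CPM in KA mice, against 126 to 380 CPM in KO-labelled mice and 74.9 to 94.9 CPM in Myc mice, and KA sums lay inside the Myc range. With 1 mouse left out the count of lower genes was 25 to 28, and it was 15 in the fit on 8 mice.

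Of 30 DNA replication genes 20 were lower (median log2 fold change -0.65). Rrm2 (chr12:24757811-24764145, plus strand), the regulatory subunit of ribonucleotide reductase made in dividing cells, was at 1.29, 1.77, 1.55 and 0.998 CPM in KA mice, against 5.46, 25.0, 10.7 and 3.59 CPM in KO-labelled mice and 1.27 to 1.86 CPM in Myc mice (log2 fold change -3.00 ± 0.37 SE, adjusted p = 2.52e-06). Its large subunit Rrm1 had a log2 fold change of -0.63, Mcm3, a subunit of the replicative helicase, one of -1.27 and Uhrf1, which copies DNA methylation after replication, one of -1.84. Without KO mouse 4, the mouse with the highest mean of both lists, 12 of the 30 were called, and 11 in the fit on 8 mice. Of 26 genes of the p53 response and apoptosis 11 were lower and 1 higher (median -0.35). Pmaip1, which promotes cell death, was at 3.10, 2.99, 3.44 and 2.67 CPM in KA mice, against 6.79, 7.74, 7.53 and 6.35 CPM in KO-labelled mice and 1.91 to 3.22 CPM in Myc mice (log2 fold change -1.22 ± 0.19 SE, adjusted p = 2.45e-05). The KA and KO-labelled mice did not overlap. Casp8, an initiator caspase, and Ccng1, a p53 target, had log2 fold changes of -1.37 and -0.43.

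Every potassium, sodium, calcium or HCN channel gene that passed the test was higher in KA mice, by less than 1 log2 unit. Of 33 potassium channel genes 6 were higher and 0 lower (background 5.86% higher), with a median log2 fold change of 0.23. Kcnn1 (chr8:71294693-71316409, minus strand), a small-conductance channel opened by calcium, was at 11.2, 11.2, 12.9 and 13.2 CPM in KA mice, against 7.30, 5.10, 8.02 and 5.06 CPM in KO-labelled mice and 12.2 to 15.9 CPM in Myc mice (log2 fold change 0.92 ± 0.15 SE, adjusted p = 3.97e-05). Kcnc2, a channel of fast-spiking neurons, and Kcng1, a modulatory subunit, had log2 fold changes of 0.46 and 0.63. Kcnc1, another channel of fast-spiking neurons, was at 86.1, 110, 103 and 114 CPM in KA mice, against 86.9, 61.3, 73.5 and 88.0 CPM in KO-labelled mice. KA mouse 5 lay below KO mice 3 and 42 for Kcnc1 (log2 fold change 0.42, adjusted p = 0.0089), and the call was lost without KO mouse 4 (adjusted p = 0.069). The list count was 3 without KO mouse 4 and 10 without KO mouse 42.

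Of 25 sodium, calcium and HCN channel genes 5 were higher (median log2 fold change 0.29), among them Hcn2, a pacemaker channel (106 to 127 CPM in KA mice, against 81.9 to 96.3 CPM in KO-labelled mice), whose call was lost without KO mouse 4 (adjusted p = 0.063) or KA mouse 43 (adjusted p = 0.069). The list count was 1 without KO mouse 4 or KA mouse 25 and 10 without KO mouse 42. Of 18 AMPA and kainate receptor genes 4 were higher and 1 lower (1 higher without KO mouse 4 or KA mouse 43). Grik5, a kainate receptor subunit, was at 136, 150, 173 and 165 CPM in KA mice, against 114, 112, 131 and 124 CPM in KO-labelled mice (log2 fold change 0.37 ± 0.10 SE, adjusted p = 0.0086). Gria1, an AMPA receptor subunit, was at 931, 1171, 1156 and 1291 CPM in KA mice, against 592, 706, 917 and 1016 CPM in KO-labelled mice, and KA mouse 5 overlapped the KO range. Its call (log2 fold change 0.49, adjusted p = 0.0304) was lost in 5 of 8 cases when 1 mouse was left out, and that of Gria2 (0.35, adjusted p = 0.0309) in 4 of 8, and the adjusted p reached 0.14 for Gria1 without KO mouse 3. Neto2, an auxiliary subunit of kainate receptors, was the lower member, at 32.4 to 43.8 CPM in KA mice, against 48.1 to 67.6 CPM in KO-labelled mice (log2 fold change -0.53 ± 0.11 SE).

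Among 13 NMDA and metabotropic glutamate receptor genes 1 was higher and 0 lower, and 0 of 12 GABA-A receptor genes passed (list medians 0.14 each). Of 22 postsynaptic density genes 3 were higher (median 0.28), led by Lrrtm1, a synaptic adhesion protein, at 75.6, 81.4, 81.5 and 93.8 CPM in KA mice, against 59.5, 46.6, 66.1 and 57.7 CPM in KO-labelled mice (log2 fold change 0.53 ± 0.10 SE, adjusted p = 3.12e-04). Of 29 synaptic vesicle genes 3 were higher (median 0.25), among them the vesicle phosphoprotein Syn2 at 490, 507, 501 and 492 CPM in KA mice, against 356, 258, 376 and 395 CPM in KO-labelled mice. The groups did not overlap for Syn2, but its call (log2 fold change 0.52, adjusted p = 0.020) was lost without KO mouse 4 (adjusted p = 0.112). The postsynaptic count was 1 without KO mouse 3 or KA mouse 25 or 26 and 10 without KO mouse 42, and the vesicle count was 0 without KO mouse 4 and 6 without KA mouse 5. The neuronal markers Rbfox3 and Gad1 moved in the same direction (given above), and their part in these results was not tested.

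Lists of hippocampal regions showed few calls. None of 11 dentate granule neuron genes and none of 9 CA1 genes passed (medians 0.25 and 0.23), and of 11 CA2 and CA3 genes 1 was higher and 1 lower (median 0.46). Of 20 interneuron and neuropeptide genes 3 were higher and 1 lower (0 higher without KO mouse 4, 1 without KA mouse 25 or 43 and 5 without KA mouse 5). Pvalb, the calcium buffer of fast-spiking interneurons, was at 16.9, 28.3, 24.6 and 30.4 CPM in KA mice, against 21.0, 9.08, 13.3 and 13.6 CPM in KO-labelled mice, with KA mouse 5 under KO mouse 3 (log2 fold change 0.81, adjusted p = 0.0076, but 0.0503 without KO mouse 4). Crh, the corticotropin-releasing hormone gene, was at 1.72 to 1.92 CPM in KA mice, against 2.48 to 4.60 CPM in KO-labelled mice (log2 fold change -0.85, adjusted p = 0.0073, but 0.054 without KO mouse 3). Of 15 thalamus and striatum genes 2 were higher and 1 lower (median -0.12). Ppp1r1b, the dopamine-regulated phosphatase inhibitor DARPP-32, was at 36.7, 39.7, 52.9 and 52.2 CPM in KA mice, against 28.0, 20.6, 19.5 and 24.6 CPM in KO-labelled mice (log2 fold change 0.97 ± 0.21 SE, adjusted p = 0.0012). Other markers of striatum or thalamus did not pass. Adora2a, Prkcd and Tcf7l2 had log2 fold changes of -0.72, -0.69 and -0.47 (adjusted p = 0.051, 0.055 and 0.27). Drd1, which was high in KA mice 5 and 26 and KO mouse 3, had one of 0.27 (adjusted p = 0.815). The part of neighbouring tissue in these values was not tested.

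Few genes of the other cell classes passed the test (over all genes, 5.86% were higher and 9.94% lower). Lower members numbered 1 of 18 for myelin and oligodendrocytes (Ermn, a cytoskeletal protein of myelin, -0.68), 1 of 10 for oligodendrocyte precursors (Vcan, a matrix proteoglycan, -0.54), 3 of 15 for endothelium, 0 of 16 for mural cells and fibroblasts, 1 of 16 for ependymal cilia and 0 of 11 for blood. The endothelium count was 0 without KA mouse 25, 1 without KO mouse 4 or 42 or KA mouse 26 and 0 in the fit on 8 mice, and the myelin count was 3 without KO mouse 42. For choroid plexus 1 of 20 was higher, Slc5a5 (0.99), and the list sum spread from 277 to 757 CPM in KA mice, against 349 to 1345 CPM in KO-labelled mice. Of 44 collagen genes 3 were lower, among them Col12a1 (-1.09) and Col4a6 (-1.64), the second of which lost its call without KA mouse 25 or KA mouse 43 (adjusted p = 0.054 and 0.053). The collagen count was 1 without KA mouse 25 or 43.

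**Figure D4:**
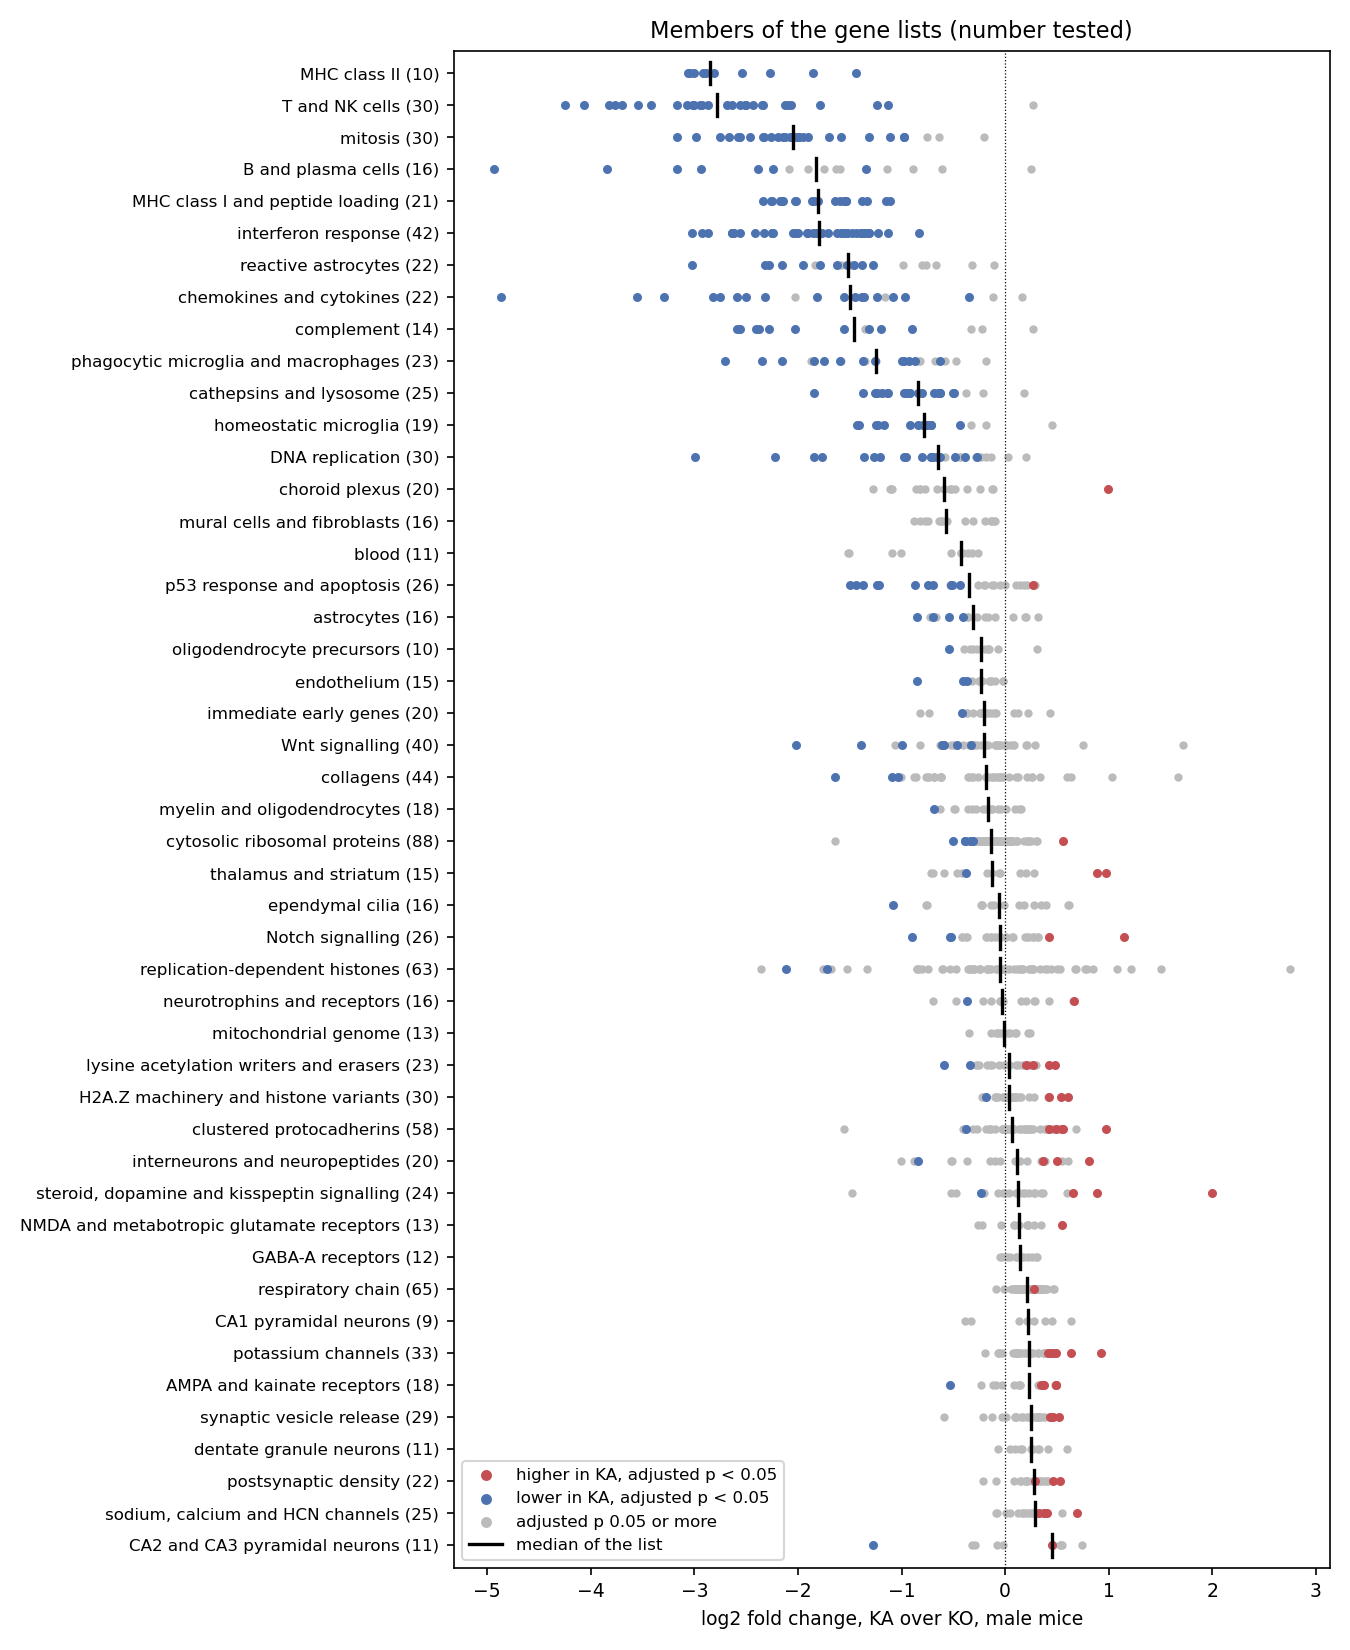
Log2 fold change of KA over KO in male mice (horizontal axis) for every tested member of the gene lists (vertical axis, number tested in brackets), coloured by call and direction, with the list median as a bar. Immune, glial and cell division lists lie left of 0, with medians of -2.85 for MHC class II and -2.05 for mitosis, and channel and synapse lists have small positive medians, such as 0.23 for potassium channels.

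Among 30 tested genes of H2A.Z machinery and histone variants 3 were higher and 1 lower (over all genes, 5.86% were higher and 9.94% lower). Actl6b (chr5:137551767-137567844, plus strand), the neuronal subunit of the BAF remodelling complex, was at 77.3, 84.2, 90.2 and 96.5 CPM in KA mice, against 55.9, 48.8, 57.2 and 67.5 CPM in KO-labelled mice and 88.0 to 95.5 CPM in Myc mice (log2 fold change 0.60 ± 0.12 SE, adjusted p = 3.2e-04). H1f0, a linker histone of cells that no longer divide, was at 130, 116, 154 and 143 CPM in KA mice, against 107, 95.3, 91.0 and 80.8 CPM in KO-labelled mice and 86.3 to 107 CPM in Myc mice (log2 fold change 0.54 ± 0.11 SE), so that every KA mouse was above both other groups. Of 23 writers and erasers of lysine acetylation 4 were higher and 2 lower. The higher count was 2 without KA mouse 26 and 7 without KA mouse 5, and it was 1 in the fit on 8 mice. The deacetylase genes Hdac11 (136 to 155 CPM in KA mice, against 92.0 to 126 CPM in KO-labelled mice) and Hdac3 (74.1 to 83.4 CPM, against 58.1 to 71.4 CPM) had log2 fold changes of 0.49 and 0.27. Kat2b, the acetyltransferase PCAF, was at 23.0 to 29.7 CPM in KA mice, against 37.2 to 44.1 CPM in KO-labelled mice and 19.5 to 26.5 CPM in Myc mice (log2 fold change -0.59 ± 0.14 SE, adjusted p = 0.0024).

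Of the genes that the study singled out for RNA or chromatin measurements, B2m, Kiss1r, Kcnc1 and Dkk2 passed the test. The study drew these genes from RNA of KA against KQ mice or from ChIP-qPCR between the sexes. RNA of KA over KO is a different comparison, so directions here do not bear on those results. Kiss1r, the kisspeptin receptor, was at 3.76, 3.40, 3.38 and 3.21 CPM in KA mice, against 2.87, 2.10, 1.78 and 1.99 CPM in KO-labelled mice and 3.68 to 4.35 CPM in Myc mice. KA mice were separate from KO-labelled mice (log2 fold change 0.65 ± 0.17 SE, adjusted p = 0.0052). Dkk2, a secreted modulator of Wnt receptors, was at 1.81, 1.85, 1.34 and 0.647 CPM in KA mice, against 3.51, 1.69, 3.90 and 2.12 CPM in KO-labelled mice. The groups overlapped, and the call (log2 fold change -0.995, adjusted p = 0.024) was lost in 4 of 8 cases when 1 mouse was left out, with an adjusted p of up to 0.126 without KA mouse 43. Th, the rate-limiting enzyme of catecholamine synthesis, had 0.512 to 0.786 CPM in KA mice, against 0.173 to 0.927 CPM in KO-labelled mice (log2 fold change 0.35, adjusted p = 0.67), and Fkbp5, a glucocorticoid-induced chaperone partner, 50.3 to 62.0 CPM, against 43.1 to 57.3 CPM (0.13, adjusted p = 0.60).

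The immediate early genes, which answer neuronal activity within minutes, had 1 lower and 0 higher members of 20 (median -0.21). Arc was at 64.4, 103, 69.0 and 98.3 CPM in KA mice, against 46.7, 54.1, 85.3 and 170 CPM in KO-labelled mice and 95.5 to 260 CPM in Myc mice (log2 fold change -0.09, adjusted p = 0.92), and its sign turned without KA mouse 5 (0.02) or KO mouse 42 (0.43). Fos was at 11.8, 11.6, 6.53 and 9.03 CPM in KA mice, against 13.1, 18.3, 13.9 and 23.98 CPM in KO-labelled mice. The groups did not overlap for Fos, but it missed the threshold (log2 fold change -0.82 ± 0.32 SE, adjusted p = 0.073) and passed it in DESeq2 (adjusted p = 0.029). Gadd45b, a stress and activity gene, and Mfng, a glycosyltransferase that modifies Notch, had log2 fold changes of -0.31 and -0.38 (adjusted p = 0.145 and 0.163), and both passed without KO mouse 42 (adjusted p = 0.036 and 0.041).

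In Wnt signalling 7 of 40 genes were lower and 0 higher (median -0.21). The lower count was 3 to 6 with 1 mouse left out, 4 without KO mouse 3 or KA mouse 25 and 3 without KA mouse 26, and it was 3 in the fit on 8 mice. Rspo1, which amplifies Wnt signals, was at 1.57, 0.836, 1.05 and 0.620 CPM in KA mice, against 3.60, 3.54, 5.68 and 3.72 CPM in KO-labelled mice and 0.254 to 0.880 CPM in Myc mice (log2 fold change -2.02 ± 0.34 SE, adjusted p = 6.93e-05). Sfrp1, a secreted antagonist, and Lrp5, a co-receptor, had log2 fold changes of -1.39 and -0.61. In Notch signalling 3 of 26 genes were lower and 2 higher (median -0.05), near the shares over all genes (9.94% lower and 5.86% higher). Rbpj (chr5:53623494-53814704, plus strand), the DNA-binding partner of cleaved Notch, was at 41.0, 34.9, 33.3 and 31.1 CPM in KA mice, against 58.6, 66.5, 77.5 and 58.3 CPM in KO-labelled mice and 31.1 to 36.4 CPM in Myc mice. KA mice were thus within or near the Myc range and apart from the KO-labelled mice (log2 fold change -0.90 ± 0.12 SE, adjusted p = 3.66e-06). Lfng, another Notch glycosyltransferase, had a log2 fold change of -0.53, and Hes1 and Hes5, repressors switched on by Notch, were the higher members (0.43 and 1.15), of which Hes5 lost its call without KA mouse 43 (adjusted p = 0.101).

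In the list of steroid, dopamine and kisspeptin signalling 3 of 24 genes were higher and 1 lower (median 0.13). Akr1c18 (chr13:4182614-4200672, minus strand), which inactivates progesterone, was at 0.604, 2.08, 2.28 and 2.43 CPM in KA mice, against 0.514, 0.654, 0.281 and 0.389 CPM in KO-labelled mice and 3.37 to 4.00 CPM in Myc mice (log2 fold change 2.00 ± 0.35 SE, adjusted p = 1.11e-04). KA mouse 5 lay among the KO-labelled mice and the other KA mice between them and Myc. The dopamine receptor Drd2 was at 1.43 to 2.43 CPM in KA mice, against 0.838 to 1.38 CPM in KO-labelled mice (log2 fold change 0.88). Of 16 neurotrophin and receptor genes 1 was higher (3 without KO mouse 42) and 1 lower.

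Few members of the housekeeping and multigene lists passed the test. Over all genes, 5.86% were higher and 9.94% lower, and the ribosomal and protocadherin counts below are near these shares. Of 65 respiratory chain genes 1 was higher (median 0.21, with 4 called without KA mouse 5 or KO mouse 21, 3 without KO mouse 3 and 0 without any 1 of the other mice) and of 13 genes of the mitochondrial genome 0 passed. Of 88 cytosolic ribosomal protein genes 7 were lower and 1 higher, Rps4l (0.56), with Rpl23 (-0.39) among the lower. The lower ribosomal count was 3 or 4 without KO mouse 3, 4 or 21 or KA mouse 25 or 43, 1 without KA mouse 26, 11 without KA mouse 5 and 16 without KO mouse 42, and it was 1 in the fit on 8 mice. Of 58 clustered protocadherin genes 5 were higher and 1 lower, and Pcdhac1, at 2.12 to 2.40 CPM in KA mice, against 0.736 to 1.38 CPM in KO-labelled mice, had a log2 fold change of 0.97 and Pcdhga2 one of 0.49. The higher protocadherin count was 2 without KO mouse 4, 3 without KO mouse 3 or 21 or KA mouse 25, 26 or 43 and 8 without KO mouse 42, and it was 1 in the fit on 8 mice. Of 63 replication-dependent histone genes 2 were lower, among them H2ac23 (-2.11), at 0.236 to 0.330 CPM in KA mice, against 0.730 to 1.64 CPM in KO-labelled mice. Histone and protocadherin genes are close copies, and reads shared among copies make these values uncertain.

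In females, the same contrast called 1601 genes higher (5.63%) and 2738 lower (9.62%). Of the male calls, 777 higher genes were also higher in females (46.6% of male and 48.5% of female calls) and 1899 lower genes were also lower (67.2% and 69.4%), and 0 were called in opposite directions. The 2 contrasts share no mouse. Fold changes of males and females were correlated across 16037 genes with a mean of at least 1 CPM over the 8 male mice. There r was 0.798 (Spearman rho = 0.782), and across all 28449 tested genes it was 0.458 (rho = 0.504). Genes are not independent replicates, and both values share 1 normalization and 1 fit. Genes called in males but not in females had a female median of 0.21 (male median 0.40) for the higher and -0.35 (male median -0.71) for the lower ones. That choice of genes favours a smaller value in females, so these medians do not show a weaker female response. In females 42 of 42 interferon, 21 of 21 MHC class I, 10 of 10 MHC class II, 28 of 30 T and natural killer cell and 21 of 30 mitosis genes were lower. Other counts were further from those of males. Higher in females were 15 potassium channel genes (6 in males), 11 sodium, calcium and HCN channel genes (5) and 11 synaptic vesicle genes (3). Lower were 8 mural cell and fibroblast genes (0 in males), 12 collagen genes (3) and 12 DNA replication genes (20). Female medians were -2.20 for B and plasma cell genes (8 of 16 lower) and -2.05 for choroid plexus genes (0 of 20 called). Dach2 was at 6.81 to 12.4 CPM in female KA mice, against 1.02 to 1.47 CPM in female KO mice (log2 fold change 2.88, adjusted p = 2.2e-04). The difference between males and females was not called for any gene in edgeR (0 of 28449, with 1094 at an unadjusted p under 0.05) and for 2 genes in DESeq2. A p that misses the threshold does not show that the sexes were alike. In the male minus female difference, Chrnb4, a nicotinic receptor subunit, had the smallest p among genes with a positive value (3.92, adjusted p = 0.973), at 0.0507 to 0.566 CPM in male KA mice, against 0.0541 to 0.259 CPM in male KO-labelled mice, and at 0.0935 to 0.241 CPM in female KA mice, against 0.370 to 3.21 CPM in female KO mice.

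**Figure D5:**
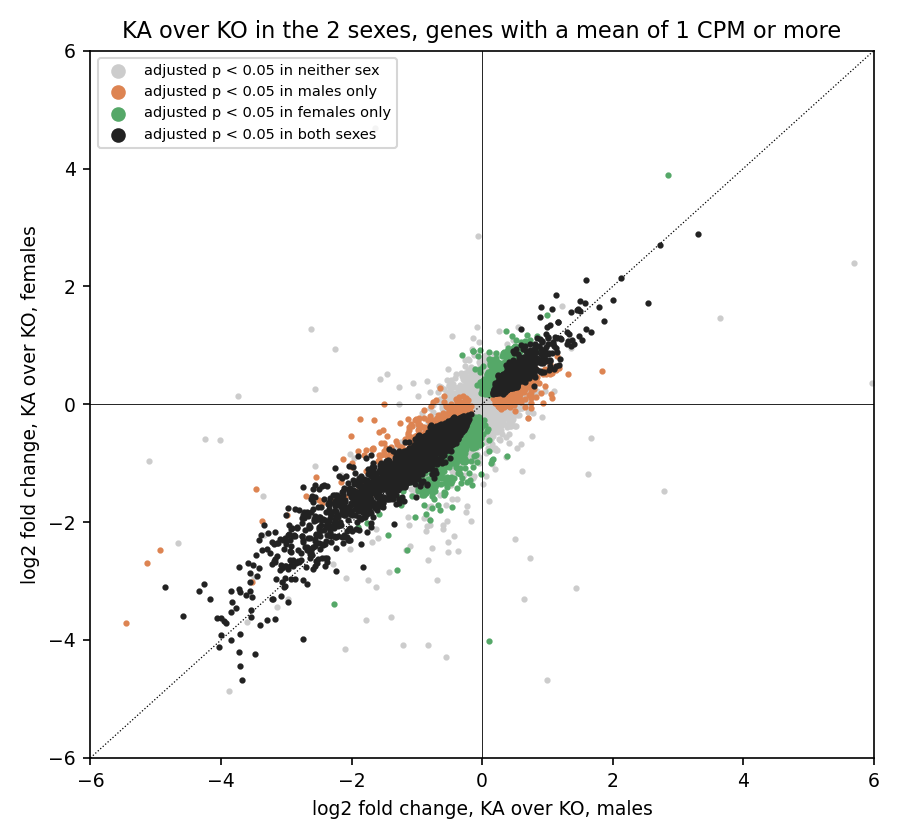
Log2 fold change of KA over KO in males (horizontal axis) and in females (vertical axis) for 16037 genes with a mean of at least 1 CPM, coloured by the sexes in which they were called, with 29 genes outside the axes at ±6. Points run along the diagonal, with r = 0.798, and no gene was called in opposite directions.

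Against the other forms of H2A.Z.1, 0 genes were called between male KA and KQ mice (2993 at an unadjusted p under 0.05, and 20 in DESeq2). Between KA mice and mice with wild-type H2A.Z.1, 0 genes were called (1439 at an unadjusted p under 0.05, and 18 in DESeq2). In each comparison 1422 genes would be expected at that unadjusted p if no gene differed. DESeq2 gave no adjusted p for 14898 genes in KA over KQ. Missing the threshold does not show that these groups were alike. With KQ mouse 45 left out, 5 genes were called between KA and KQ. The gene with the smallest p against KQ was Lrrc19, at 0.0507 to 0.131 CPM in KA mice, against 0.345 to 0.496 CPM in KQ mice (log2 fold change -2.07, adjusted p = 0.121). Zfp738, a zinc finger gene, was at 16.0 to 17.3 CPM in KA mice, against 19.4 to 26.7 CPM in KQ mice (-0.42, adjusted p = 0.181, and 0.0029 in DESeq2), and Inka1, a kinase inhibitor gene, at 4.97 to 6.04 CPM, against 2.87 to 4.12 CPM (0.73, adjusted p = 0.239, and 0.0045 in DESeq2). For all 3 genes the groups did not overlap. Klf7, a transcription factor gene, had log2 fold changes of -0.39 against KQ (adjusted p = 0.306, and 0.0187 in DESeq2) and -0.35 against wild-type H2A.Z.1 (adjusted p = 0.632, and 0.073 in DESeq2), and Crygn had the smallest p against wild-type H2A.Z.1 (2.32, adjusted p = 0.556, and 0.0187 in DESeq2).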

How the data were processed

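RNA of 40 hippocampi was sequenced as paired-end reads on a HiSeq. Per the submitters' processing notes and the study's methods, the authors checked reads with FastQC 0.11.9, aligned them to GRCm39 and counted reads per gene with featureCounts, and used DESeq2 1.38.3. The deposited table holds raw counts for 40853 genes, and the strand setting is not given in the sources used here, so reads of a gene and an antisense partner may not be told apart. A deposited table of the same counts divided by size factors was not used. Each column was matched to a mouse by its number in the titles.

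Here, genes with at least 20 counts in all were kept (28449) and tested with edgeR 4.0.16 (limma 3.58.1, R 4.3.3): TMM scaling, a robust quasi-likelihood fit of all 10 groups and Benjamini-Hochberg adjustment, called at an adjusted p under 0.05. CPM are counts per 1000000 TMM-scaled counts, and log2 CPM used a prior count of 2. The 10-group fit shares 1 estimate of the spread. The mice, gene lists and tests were chosen with earlier results of these data known. Named genes were the 15 largest called changes per direction with a mean of at least 1 CPM and groups that did not overlap, H2az1 and H2az2, genes named in the study, up to 4 members per list with the smallest p, and up to 5 genes per direction with the smallest p in the other comparisons. Of these 5, unannotated, immunoglobulin and some further genes are not described, and some named genes are not reported here. Genes beyond the rule (tissue markers, Hes1, Gja1, Cd3e, Oas3) were added after their values were seen. Of the symbols in the 47 lists, 2 were not found. DESeq2 1.42.0, other filters, a term for the range of the mouse number (1 to 20, 21 to 40 and 41 to 46), the 8 mice alone and leaving out each mouse were the alternatives. P-values set a difference against the spread between mice within groups, estimated over all 10 groups in the main fit. Litters and cages of the mice are not given. Depth is the total of gene counts per library. Code was tested on simulated data.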

Additional observations from a re-analysis of the deposited data

Results flagged for a closer look

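Of 276 sets of 4 mice (138 genes in the KA and the KO-labelled group), 38 (13.8%) held a mouse whose distance from the next was over Dixon's 95% limit for its group. That limit holds for independent values with a normal spread. CPM of related genes and of genes with few reads are not such values, so the share cannot be set against chance. KA mouse 5, at the top of its group, accounted for 18 of the 38. In KA mouse 5, MHC and immune genes stood out: B2m at 1060 CPM, Tapbpl at 16.3 CPM, H2-DMa at 34.6 CPM, H2-Oa at 9.04 CPM, Psmb8 at 48.6 CPM, C1ra at 12.7 CPM, Cybb at 29.9 CPM and Srgn at 23.2 CPM. Its lymphocyte genes did so too, with Lck at 4.01 CPM, Cd8a at 2.61 CPM, Nkg7 at 1.62 CPM, Ifng at 0.357 CPM, Klrh1 at 0.302 CPM, Iglc1 at 3.60 CPM and Igkv16-104 at 0.055 CPM. The remaining genes of KA mouse 5 were Mcm3 at 6.57 CPM, Rpl23 at 137 CPM and H2az2 at 28.4 CPM.

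KO mouse 21 was highest in 9 genes, mostly of immune genes: Cd8a at 46.8 CPM, Ciita at 47.3 CPM, Lck at 23.4 CPM, Cd247 at 9.94 CPM, Trgc2 at 9.82 CPM, Gbp2b at 8.00 CPM, Ifng at 7.93 CPM, the unnamed transcript Gm5486 at 4.96 CPM and the Wnt amplifier Rspo1 at 5.68 CPM. It was also the lowest for Dach2, at 0.257 CPM. Single immunoglobulin segments stood out in different mice, with Ighv1-22 at 34.3 CPM and Igkv4-74 at 13.8 CPM in KO mouse 3, Igkv3-4 at 82.7 CPM in KO mouse 4, and Igkv4-68 at 54.2 CPM, Iglv1 at 285 CPM and Iglc1 at 116 CPM in KO mouse 42. Ighv1-22 and Igkv4-74 were at 0.027 CPM (1 read) in KA mouse 43 and at 0 in the other KA mice. In KO mouse 4, Itgam (174 CPM) and Kat2b (44.1 CPM) were the furthest from the rest of the group.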

How the results depend on the processing

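The counts of called genes depended most on which libraries set the spread. With only the 8 mice compared in the fit, 2661 genes were called (938 higher, 1723 lower), against 4494 (1667 and 2827) in the fit of all groups, and 33 of the 130 called genes that the text names lost their call there. Over the mice left out 1 at a time, calls ran from 3115 to 4852, with 988 to 1846 higher (1106 without KO mouse 4, 988 without KA mouse 43) and 2122 to 3006 lower. In females the fit on only the groups compared called 2101 (569 higher, 1532 lower), and leaving out each mouse gave 2368 to 5122, with 658 to 1997 higher and 1710 to 3125 lower. Without KA mice 5 and 26 and KO mouse 3, an alternative chosen after seeing the data, 3658 genes were called (1272 higher, 2386 lower), which held 72.7% of the calls. DESeq2 called 2 genes in males minus females, 20 in KA over KQ and 18 in KA over WT, where edgeR called 0 in each, and KA over KQ ran from 0 to 5 over the mice left out (0 throughout in KA over WT). The cause of these changes was not tested. The share of calls that were higher stayed between 31.7% and 39.6% over all alternatives. Of 2207 pairs of a named gene and a setting, 2100 kept direction and call, 98 lost the call, 4 gained it and 5 changed sign: H2az2 without KA mouse 5 (-0.04), KO mouse 21 (-0.03) or KO mouse 42 (-0.070), and Arc without KA mouse 5 (0.02) or KO mouse 42 (0.43). No paired analysis was possible because the groups share no mouse number. With the range of the mouse number as a term instead, 4585 genes were called (1734 higher, 2851 lower). Over the mice left out, the log2 fold change of H2az2 ran from -0.070 to 0.085 and that of Arc from -0.30 to 0.43. At this depth, genes with few reads, such as the immunoglobulin segments, were the least certain.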
